A study of Rattus norvegicus with 3 samples.

Results

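A set of 10 genes that mark T cells and cytotoxic lymphocytes was followed across 3 oral soft tissues of the rat. They were chosen by gene symbol in the probe-set annotation: Cd3e, Cd3d, Cd3g, Cd8a, Cd4, Cd2, Lck, Gzmb, Prf1 and Nkg7, which are 10 of the 14217 named genes on the array. They are read by 14 probe sets (groups of short probes summarised to 1 value) that carry 1 gene symbol. Another probe set, 1371126_x_at, names both Gzmb and the pseudogene LOC100361261 and was kept out of the gene values.

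All animals were wild-type male Sprague-Dawley rats aged 9 weeks at harvest. In the peri-implant connective tissue (PICT) group, the upper first molar was taken out at 5 weeks of age and a titanium alloy implant was set into the fresh socket, with harvest 4 weeks later. Oral mucosal connective tissue (OMCT) came from a site where the same molar had been removed 4 weeks before and no implant was set. Periodontal connective tissue (PCT) came from around an upper first molar still in place. Each area was cut out by laser microdissection, and 1 array was run per tissue. The sources used here do not say how many animals stand behind an array, so no spread between animals can be given and no test was run.

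T cells recognise antigen through a receptor that signals through the CD3 chains, and the kinase Lck starts that signal from the tails of the coreceptors CD4 and CD8. CD4 marks helper T cells and CD8 marks cytotoxic T cells; in the rat, macrophages also carry CD4 and many natural killer (NK) cells carry CD8 alpha. Cytotoxic T cells and NK cells kill by releasing perforin, which opens membranes, and granzymes, proteases that enter the target through them. In gum and mucosa, T cells lie in the connective tissue and within the epithelium.

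The values are deposited intensities on a linear scale. Differences are given in log2(intensity + 8.56) after each array's own median was subtracted, and are called relative log2 differences. A gene counts as higher or lower when this difference is at least 1, which is 2-fold, and the brighter array lies at or above its own median. The array medians were 56.5, 34.3 and 57.4 for PICT, PCT and OMCT, so as deposited every PICT minus PCT difference is larger by 0.60 and every OMCT minus PCT difference by 0.62. Because the pseudocount weighs more on the dimmer PCT array, a gene near 0 on both arrays takes a relative difference near -0.60 from PCT. The brightest of 3 negative control probe sets (for a bacterial gene that is not in the rat) read 8.36, 5.71 and 3.60 on these arrays. A value at or below it is called at background here. The 3' to 5' ratio of Gapdh control probe sets, which grows as RNA shortens, was 1.12, 1.46 and 1.20 in the same order, and that of hexokinase 1.58, 2.80 and 1.97. Thus PCT, the array on which most of these genes were dimmest, also had the highest ratios; the part of RNA length in the results was not tested.

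The labels name connective tissue. Fibroblast markers were bright on every array, with Col1a1 (type I collagen) at 5550, 6650 and 8190 in PICT, PCT and OMCT, but so were epithelial keratins, with Krt5 at 7960, 9570 and 8600. The sections therefore held epithelial RNA as well. Other markers of these cells were less even, with Krt1 at 4780, 1770 and 112 and Pdgfra at 517, 252 and 1890. For PICT minus OMCT, 2 of 6 keratinocyte markers were higher and 1 lower, beside 4.15% and 4.46% of all genes. Of 7 fibroblast markers, 3 were lower and 0 higher. The part of tissue make-up in the results was not tested. In such bulk samples, fewer lymphocytes and less RNA per lymphocyte cannot be told apart.

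The 10 markers were dim genes. All 10 lay above background in PICT, 7 in PCT and 9 in OMCT, where 86.6%, 86.3% and 92.4% of all genes did. Cd8a, Prf1 and Nkg7 were at background in PCT, and Gzmb was in OMCT. At or above the array median were 4 members in PICT (Cd3g, Cd8a, Cd4 and Cd2), 1 in PCT (Cd2) and 2 in OMCT (Cd4 and Cd2). Intensity was highest in PICT for 7 members and in OMCT for 3 (Cd3e, Cd4 and Cd2), and lowest in PCT for 8 and in OMCT for 2 (Lck and Gzmb). Relative to the array medians, 6 members were highest in PICT, 3 in OMCT and 1, Lck, in PCT.

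**Figure D1:**
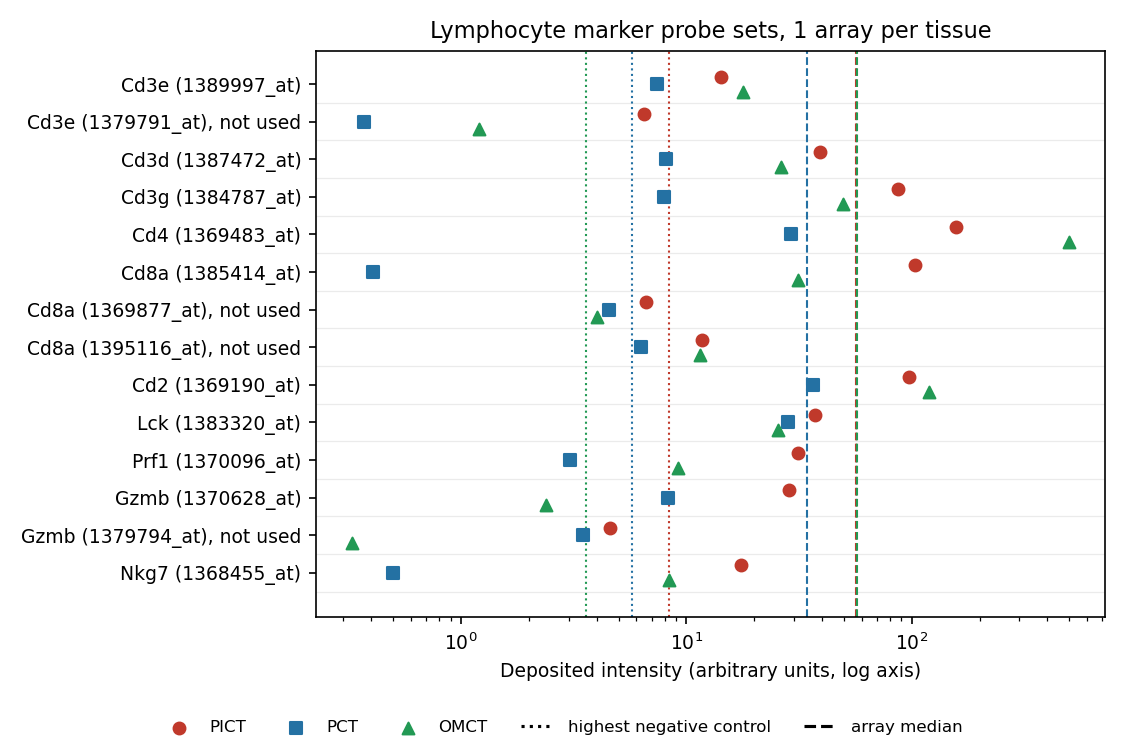
Deposited intensity (log axis) of the 14 single-symbol probe sets of the 10 markers, with 1 array per tissue (red circles PICT, blue squares PCT, green triangles OMCT). Dotted lines are each array's highest negative control (8.36, 5.71 and 3.60) and dashed lines its median, those of PICT and OMCT lying almost on top of each other at 56.5 and 57.4; most points lie left of the medians, and the Cd8a probe set with the brightest values is at 0.407 in PCT.

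The promoters of 3 of these genes are shown because Cd8a, Prf1 and Gzmb are the members whose PICT value exceeded the OMCT value 2-fold or more once every value above background was let in. The sequences are the 250 bases before the RefSeq start of each gene in build GRCr8, 5' to 3' on the gene's own strand. Capitals mark matches on either strand to AGGAAG (a core bound by ETS factors), TGTGGT (RUNX factors), GGTGTGA (T-box factors) or TGANTCA (AP-1).
Prf1, chr20:29788790-29789039, plus strand: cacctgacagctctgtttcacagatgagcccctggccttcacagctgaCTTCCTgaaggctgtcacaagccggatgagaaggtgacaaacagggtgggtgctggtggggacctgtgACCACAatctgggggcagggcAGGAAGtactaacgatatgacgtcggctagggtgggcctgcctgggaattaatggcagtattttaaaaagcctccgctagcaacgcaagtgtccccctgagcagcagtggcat
Gzmb, chr15:34462470-34462719, minus strand: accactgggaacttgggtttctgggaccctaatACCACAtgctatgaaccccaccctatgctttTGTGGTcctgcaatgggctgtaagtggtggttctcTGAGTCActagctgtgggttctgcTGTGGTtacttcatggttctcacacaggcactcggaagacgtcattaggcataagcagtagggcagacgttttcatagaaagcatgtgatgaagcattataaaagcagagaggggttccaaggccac
Cd8a, chr4:104923866-104924115, plus strand: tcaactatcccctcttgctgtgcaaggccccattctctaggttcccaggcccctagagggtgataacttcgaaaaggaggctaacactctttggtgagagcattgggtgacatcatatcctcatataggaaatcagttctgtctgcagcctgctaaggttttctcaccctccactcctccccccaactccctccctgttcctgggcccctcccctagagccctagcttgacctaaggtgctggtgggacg

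The Prf1 window held AGGAAG 2 times and TGTGGT 1 time. The Gzmb window held TGTGGT 3 times, with first bases 217, 186 and 127 bases before the start, and TGANTCA 1 time. The Cd8a window held none of the 4 motifs. Windows were found for 9 members, all but Cd4, and Lck had 2, which gave 10 windows. Of these, 7 held AGGAAG, 5 held TGTGGT, 1 held TGANTCA and 0 held GGTGTGA. Among 33469 windows of the same length, 29.5%, 14.5%, 6.34% and 3.22% held these motifs. The motifs do not overlap each other in the printed windows, and a match is a string of letters, not a shown binding site.

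The CD3 genes did not move as a block. Cd3g, the gamma chain, read 87.3, 7.94 and 49.5 in PICT, PCT and OMCT. It was thus brightest around the implant, intermediate at the healed extraction site and just above background around the tooth. Its relative log2 difference was 1.94 for PICT minus PCT, 0.74 for PICT minus OMCT and 1.19 for OMCT minus PCT. With the pseudocount raised to the median intensity, the first of these was 0.93, short of 2-fold. Cd3d, the delta chain, which pairs with epsilon in the receptor, kept the same order, with 39.3, 8.12 and 26.4. Its differences were smaller, at 0.92, 0.47 and 0.44, and none reached 2-fold. Cd3e, the epsilon chain, which is needed for the receptor to reach the surface, read 14.3, 7.41 and 17.8 on its brighter probe set, 1389997_at. Relative to the array medians these were nearly level, at -0.08, -0.18 and 0.10 (PICT minus PCT, PICT minus OMCT and OMCT minus PCT), and as deposited they were 0.52, -0.20 and 0.72. The other Cd3e probe set, 1379791_at, was at background on all arrays (6.48, 0.372 and 1.20) and so gives no order. These genes are next to each other in the RefSeq gene table, in the order Cd3g, Cd3d and Cd3e.

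The remaining receptor chain, Cd247 (zeta, the chain with the most signalling motifs), ran the other way in the comparisons with the tooth. It was named from the receptor signalling list described further on. Probe set 1370621_at read 67.7, 87.8 and 32.2 in PICT, PCT and OMCT, and 1388026_at read 15.7, 53.9 and 17.2. Both were brightest around the tooth, where Cd3g and Cd3d were dimmest. The OMCT minus PCT difference was -1.86 and -1.90 on these probe sets, while PICT minus PCT was -0.94 and -1.97.

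Among the coreceptors, Cd4 and Cd8a differed in opposite directions between the sockets. Cd4, measured by 1369483_at, stood at 157, 29.2 and 498 in PICT, PCT and OMCT. The healed site was the brightest array and the tooth the dimmest. The relative difference was 1.53 for PICT minus PCT, -1.60 for PICT minus OMCT and 3.12 for OMCT minus PCT. All 3 passed the 2-fold rule.

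Cd8a, the alpha chain of CD8, read 103, 0.407 and 31.4 on probe set 1385414_at, in the order PICT, PCT and OMCT. It was brightest around the implant and at background around the tooth. The relative difference was 3.04 for PICT minus PCT, 1.50 for PICT minus OMCT and 1.53 for OMCT minus PCT. Since PCT was at background, only a bound on the fold is measured there: each brighter value over its array median, set against the PCT negative control over the PCT median. On that basis Cd8a was at least 11.0-fold higher in PICT and at least 3.29-fold higher in OMCT. Such fold bounds leave out the pseudocount, so they are not on the scale of the relative log2 differences. With values floored at the control and the pseudocount kept, those were 2.37 for PICT minus PCT and 0.86 for OMCT minus PCT.

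The other Cd8a probe sets did not show this pattern. Probe set 1395116_at read 11.7, 6.30 and 11.5 in PICT, PCT and OMCT, with relative differences of -0.15, 0.04 and -0.19 in the order PICT minus PCT, PICT minus OMCT and OMCT minus PCT. Probe set 1369877_at read 6.61, 4.52 and 4.02, at background in PICT and PCT. With the mean over its probe sets, Cd8a fell short of 2-fold in every comparison, at 0.83, 0.61 and 0.22. With the pseudocount at the median intensity its PICT minus OMCT difference was 0.94. The Cd8a result therefore rests on 1 of its 3 probe sets. Cd8b, the beta chain that pairs with alpha on most cytotoxic T cells, was named after its values were seen. Its values were 18.8 in PICT, 1.34 around the tooth, which is background, and 53.0 in OMCT, so its brightest array was the healed site and not the implant. Its relative difference for PICT minus OMCT was -1.15, against 1.50 for Cd8a.

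Cd2, an adhesion receptor of T cells and NK cells, and Lck passed the 2-fold rule in no comparison. Cd2 read 97.3, 36.5 and 119 in PICT, PCT and OMCT. Relative to the array medians it differed by 0.63, -0.25 and 0.88 in the order PICT minus PCT, PICT minus OMCT and OMCT minus PCT, none of them 2-fold. As deposited, Cd2 differed by 1.23 for PICT minus PCT and 1.50 for OMCT minus PCT, so whether it counts as higher depends on the scaling. Lck read 37.1, 28.2 and 25.5. Its relative differences were -0.29, 0.44 and -0.73, and it was the only member with its highest relative level around the tooth; as deposited PICT minus PCT was 0.31, the other way.

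The killing genes Prf1, Gzmb and Nkg7 were all brightest in PICT and below that array's median. Prf1, which encodes perforin, read 31.4, 3.03 and 9.21 in PICT, PCT and OMCT. The implant array was the brightest, and the tooth array was at background. The relative difference was 1.18 for PICT minus PCT and 1.19 for PICT minus OMCT. With values floored at the control, PICT minus PCT was 0.88. Without the pseudocount, Prf1 was at least 3.34-fold higher in PICT against the PCT control. OMCT minus PCT was -0.01, or 0.62 as deposited.

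Gzmb, the granzyme that triggers cell death by cutting caspases, read 28.5, 8.25 and 2.39 on probe set 1370628_at, in the order PICT, PCT and OMCT. Here the healed site, at background, was the dimmest array. The relative difference was 0.54 for PICT minus PCT, 1.78 for PICT minus OMCT and -1.24 for OMCT minus PCT. Against the OMCT control and without the pseudocount, Gzmb was at least 8.06-fold higher in PICT and at least 3.84-fold higher in PCT. With values floored at the control, its relative differences were 1.63 for PICT minus OMCT and -1.09 for OMCT minus PCT. Its other single-symbol probe set, 1379794_at, was at background on all arrays, at 4.59, 3.47 and 0.327. With the mean over both, PICT minus OMCT was 1.18. The probe set shared with the pseudogene read 8.65, 3.90 and 2.59, just above background in PICT and at background on the others. Nkg7, a membrane protein of cytotoxic granules, read 17.5, 0.496 and 8.34, in the order PICT, PCT and OMCT. Its relative differences of 0.92, 0.64 and 0.28 (PICT minus PCT, PICT minus OMCT and OMCT minus PCT) were under 2-fold. Against the PCT control and without the pseudocount it was at least 1.86-fold higher in PICT. With values floored at the control, its PICT minus PCT difference was 0.27, and with the pseudocount at the median intensity 0.09. It was 1.52 as deposited, 1.37 with quantile normalization, 1.35 with a common trimmed mean and 2.92 with a pseudocount of 1. Whether Nkg7 reaches 2-fold there depends on the processing.

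**Figure D2:**
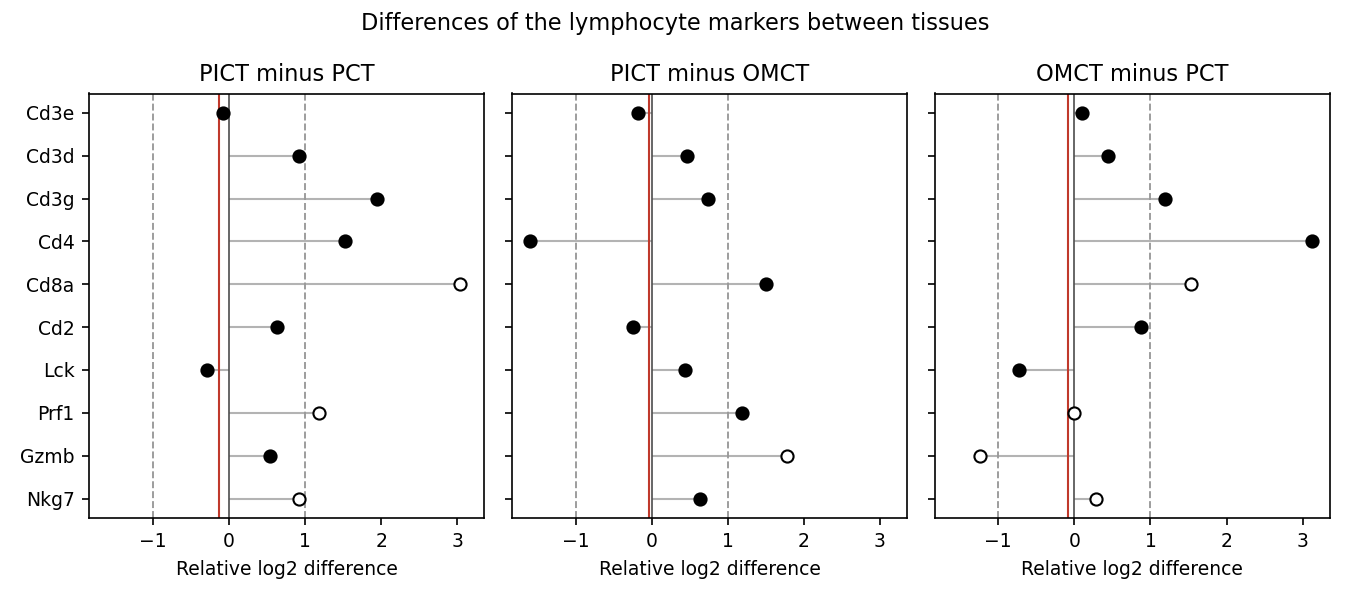
Relative log2 difference of each of the 10 markers in the 3 comparisons, 1 array per tissue and so no error bars. Dashed lines mark 2-fold, the red line the median of all 14217 genes (-0.13, -0.04 and -0.08), and open circles a comparison in which 1 array was at background; Cd4 changes side between PICT minus OMCT (-1.60) and OMCT minus PCT (3.12), while Cd3e stays near 0 throughout.

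Comparing implant tissue with tooth tissue, 3 of the 10 members were higher in PICT (Cd3g, Cd8a and Cd4) and 0 were lower. Over all genes 3.98% were higher and 3.37% lower by the same rule. The member median was 0.92, beside -0.13 over all genes, and 8 of 10 differences lay above 0, beside 40.9% of those of all genes. Where the brighter array had only to exceed its negative control, Prf1 joined them, for 4 of 10, beside 4.62% of all genes and 5.94% of the 6939 genes within the members' range of mean level. Prf1 fell short of 2-fold, at 0.88, with values floored at the negative control and, at 0.29, with the pseudocount at the median intensity. Still 0 were lower, beside 6.12% and 7.09%. As deposited, Cd2 joined the first 3.

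Between the implant socket and the socket that healed without one, 1 member was higher in PICT (Cd8a) and 1 was lower (Cd4). Over all genes the shares were 4.15% and 4.46%. The member median was 0.56, beside -0.04 over all genes. With the negative control as the limit, Gzmb and Prf1 joined Cd8a, for 3 of 10 higher, beside 5.86% of all genes and 7.34% of those in the members' range. With the pseudocount at the median intensity these genes were at 0.61, 0.48 and 0.94, all under 2-fold. Cd4 was still the 1 lower member, beside 6.34% of all genes and 7.77% of those in the range. PICT minus OMCT uses arrays of nearly equal median.

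Between the healed site and the tooth, 1 member was higher in OMCT (Cd4) and 0 were lower, beside 5.66% and 4.81% of all genes. The member median was 0.36, beside -0.08. With the negative control as the limit, Cd3g and Cd8a also counted as higher, for 3 of 10 beside 6.56% of all genes and 7.65% of those in the range. With the pseudocount at the median intensity they were under 2-fold, at 0.44 and 0.35, and with the floor Cd8a was at 0.86. Gzmb counted as lower, for 1 of 10 beside 7.68% and 8.57%. The comparisons share arrays, so a single dim or bright array enters 2 of them.

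How far probe sets of 1 gene disagree gives the only measure of error in these data. Among 1967 genes with several probe sets and a mean level in the members' range, the SD of the relative difference between probe sets of a gene was 0.54 for PICT minus PCT, 0.56 for PICT minus OMCT and 0.55 for OMCT minus PCT. It holds no difference between animals. Differences are set against it only where both arrays were above background. Those of Cd3d, Cd2, Lck and Cd3e lie within 2 of these SDs in every comparison, as does Gzmb for PICT minus PCT and Nkg7 for PICT minus OMCT. Beyond 2 SDs lie Cd4 in all comparisons, Cd3g in both comparisons with PCT, and Prf1 and Cd8a (on its brightest probe set) for PICT minus OMCT. Where an array was at background only a bound is measured. With intensities floored at the negative control and the pseudocount kept, Prf1 was 0.88 for PICT minus PCT. On the same basis Cd8a was 0.86 and Gzmb -1.09 for OMCT minus PCT. Cd3g, Cd4, Cd3d, Cd2, Lck, Prf1 and Nkg7 have 1 probe set each, so no other probes check them.

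Other genes of T cell receptor signalling gave a mixed picture. Of 23 listed genes, 20 had a named probe set. In PICT minus PCT, 3 of 20 (15.0%) were higher and 0 lower, beside 3.98% and 3.37% of all genes: Ptprc (CD45, the phosphatase of all leukocytes) at 3.26, Lcp2 (the adaptor SLP-76) at 2.37 and Vav1 (an exchange factor of blood cells) at 1.30. All of these are also made by myeloid cells. The list median was 0.04. In PICT minus OMCT, 1 was higher, Lcp2 at 1.13, and 0 were lower, beside 4.15% and 4.46% of all genes, with a median of -0.01. In OMCT minus PCT, Ptprc at 3.29, Lcp2 at 1.24 and Vav1 at 1.01 were higher and Cd247 was lower, which is 3 and 1 of 20 beside 5.66% and 4.81% of all genes, with a median of 0.33. The adaptor Sh2d1a was at background on all arrays, and Lat, Cd5, Cd6 and Cd28, like Cd8b, were at background in PCT. Trat1, an adaptor of the receptor complex named after its values were seen, went the other way: it read 4.44, 9.48 and 0.288 in PICT, PCT and OMCT, above background around the tooth alone. Its relative differences from PCT were -1.07 in PICT and -1.65 in OMCT.

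Of 38 listed genes for costimulation, cytokines and T cell transcription factors, 22 had a named probe set. In PICT minus PCT 5 of 22 (22.7%) were higher and 0 lower, beside 3.98% and 3.37% of all genes: Il7r (the interleukin 7 receptor, which keeps T cells alive) at 3.37, Itgal (the alpha chain of the integrin LFA-1) at 2.23, Il2rb (a receptor chain for interleukins 2 and 15) at 1.47, Runx3 (a factor of CD8 T cells) at 1.46 and Icos (a costimulatory receptor of activated T cells) at 1.14. Il7r read 360, 14.9 and 166 in PICT, PCT and OMCT. Itgal read 110, 8.13 and 268, and the part of other leukocytes in its values was not tested. Il2rb read 86.2, 13.9 and 23.3, bright in PICT alone. All 3 probe sets of Icos were brighter in PICT than in PCT, with relative differences of up to 2.32. In PICT minus OMCT, Il2rb at 1.59 and Il7r at 1.10 were higher and Itgal at -1.20 was lower, which is 2 and 1 of 22 beside 4.15% and 4.46% of all genes. In OMCT minus PCT, Itgal at 3.43, Il7r at 2.27, Runx3 at 1.82 and S1pr1 (the receptor that guides lymphocytes out of tissue, also on endothelium) at 1.14 were higher and 0 were lower, which is 4 of 22 (18.2%) beside 5.66% of all genes. The list medians were 0.21, 0.01 and 0.12 in these comparisons. The cytokine Il4 and the receptor Ctla4 were at background on every array, and Ifng read 2.57, 3.54 and 7.69, above background in OMCT alone.

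Of 31 listed cytotoxic granule and NK cell genes, 26 had a named probe set. In PICT minus PCT 6 of 26 (23.1%) were higher and 0 lower, beside 3.98% and 3.37% of all genes: Cst7 (an inhibitor of granule cathepsins) at 2.38, Klrb1c at 2.10, Srgn (serglycin, the proteoglycan that packs granules) at 2.06, Klrb1b at 1.52, Klrk1 (the activating receptor NKG2D) at 1.46 and Ctsc (cathepsin C, which activates granzymes) at 1.19. Klrb1b and Klrb1c are lectin-like receptors of NK cells, and related Klr genes can share probes. Cst7, Srgn and Ctsc read 253, 553 and 3550 in PICT, where Prf1 read 31.4 and Gzmb 28.5. The part of other leukocytes in the values of Cst7, Srgn and Ctsc was not tested. The list median was 0.44, and 21 of 26 genes lay above 0, beside 40.9% of all genes. That count includes genes at background on both arrays. Of the 20 above background on either array, 17 lay above 0, beside 44.4% of all such genes. In PICT minus OMCT, Srgn at 1.11 and Klrk1 at 1.09 were higher and 0 were lower, which is 2 of 26 (7.69%) beside 4.15% of all genes. The median was 0.51, and 22 of 26 lay above 0, beside 46.3% of all genes. Among those above background on either array it was 19 of 23, beside 45.4%. In OMCT minus PCT, Cst7 at 2.55 was higher, Rab27a (a GTPase of granule release, also of pigment and epithelial cells) at -1.38 was lower, each 1 of 26 (3.85%) beside 5.66% and 4.81% of all genes. The median was 0.00, and 13 of 26 lay above 0, beside 44.1% of all genes. Among those above background on either array it was 13 of 21, beside 46.9%.

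Klrk1 read 95.7, 16.3 and 41.0 in PICT, PCT and OMCT, an order shared with Prf1 and Cd8a. The dimmer genes Ccl5, Cd96 and Klrd1 were named after their values were seen. Ccl5, a chemokine of activated T and NK cells, read 38.4, 4.22 and 11.4, also brightest in PICT and at background in PCT. Cd96, a receptor of T and NK cells, read 20.7, 2.23 and 1.22, and Klrd1 (CD94) read 15.3, 0.0988 and 3.03, both above background in PICT alone. Of the other granzymes, Gzma was above background on every array and under 2-fold in every comparison, at 0.30, 0.58 and -0.28 (PICT minus PCT, PICT minus OMCT and OMCT minus PCT). Gzmm read 7.59, 1.46 and 4.38 and Gzmf 5.14, 0.302 and 0.386 in PICT, PCT and OMCT. Both were brightest in PICT but at background there, where the control read 8.36. Gzmm was above background in OMCT alone, where the control read 3.60. Gzmk was above background in OMCT alone, at 10.5.

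**Figure D3:**
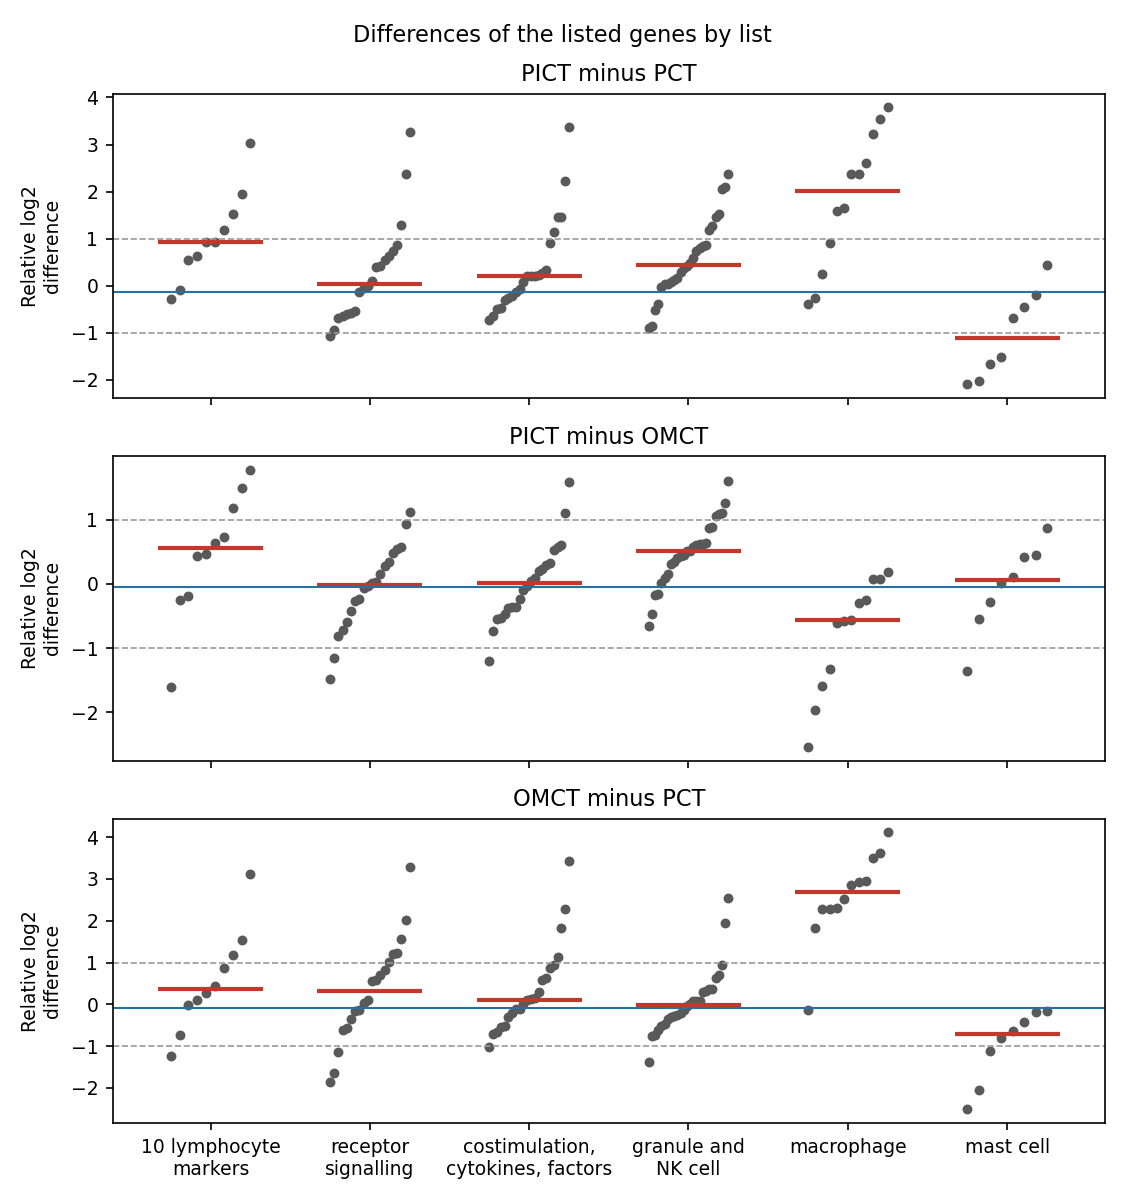
Relative log2 difference of every measured gene in 6 lists, by comparison; each point is 1 gene, red bars are list medians, the blue line is the median of all genes and dashed lines mark 2-fold. The cytotoxic and NK list has medians of 0.44, 0.51 and 0.00, while the macrophage list has 2.02, -0.57 and 2.69.

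Markers of other leukocytes moved with some of these genes. Of 12 macrophage markers, 8 were higher around the implant than around the tooth and 0 lower, beside 3.98% and 3.37% of all genes. Between the sockets 4 were lower in PICT (C1qb, C1qa, C1qc and Adgre1) and 0 higher, beside 4.46% and 4.15% of all genes. In OMCT 11 were higher than in PCT, beside 5.66% of all genes. Their summed intensity was 11420, 1239 and 13210 in PICT, PCT and OMCT, and none was at background. Adgre1, the F4/80 antigen, read 278, 54.3 and 722, the same order as Cd4 at 157, 29.2 and 498. For PICT minus OMCT 9 of the 12 lay below 0 and 3 above, such as Tyrobp at 0.18. The part of macrophage RNA in the Cd4 values was not tested.

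**Figure D4:**
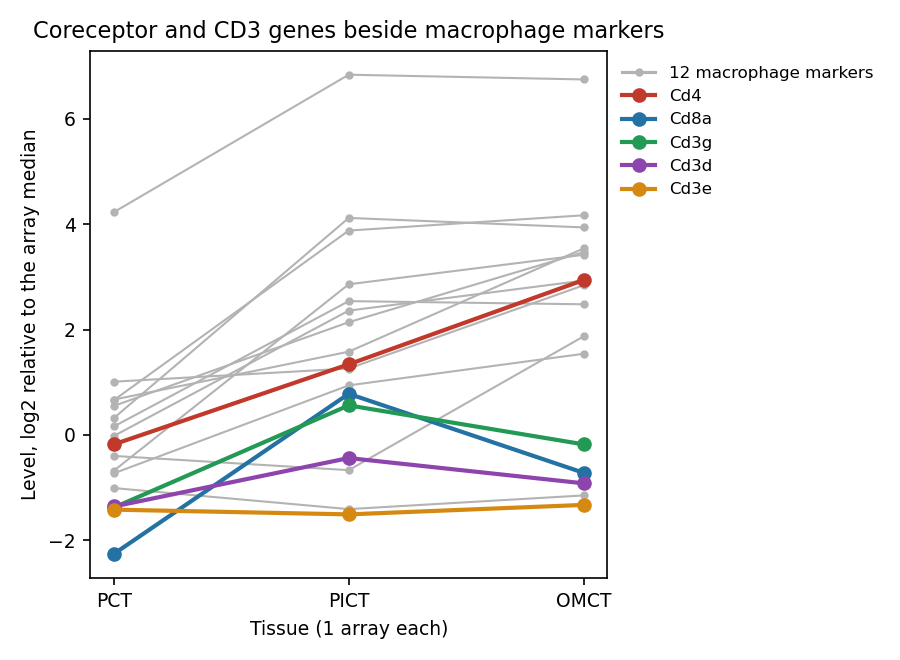
Level of Cd4, Cd8a and the CD3 genes beside 12 macrophage markers, as log2 relative to the array median, with 1 array per tissue and lines joining values of 1 gene; heights of different genes are not comparable. Cd4 climbs from -0.18 in PCT to 1.34 in PICT and 2.94 in OMCT, whereas Cd8a, Cd3g and Cd3d peak in PICT at 0.78, 0.56 and -0.44.

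Neutrophil markers, of which 5 of 7 had a named probe set, were highest in PICT, with a summed intensity of 4730, 676 and 1030 in PICT, PCT and OMCT. Of these 5, 3 were higher than around the tooth and 4 higher than at the healed site, beside 3.98% and 4.15% of all genes. Camp was at background in PCT and in OMCT. Their part in Prf1 and Gzmb, which share the PICT peak, was not tested. Mast cells can also make granzyme B. Of 8 mast cell markers, 7 were at background in PICT, 3 in PCT and 3 in OMCT, arrays whose controls differ (8.36, 5.71 and 3.60). Their summed intensity was 50.2, 104 and 58.4 in the same order. The mast cell proteases Cpa3 and Cma1 read 33.3 and 19.5 in PCT and were at background in PICT and OMCT. The marker above background in PICT was Fcer1a (the alpha chain of the IgE receptor), which read 13.1, 1.92 and 3.49 in PICT, PCT and OMCT and was above background there alone. The part of mast cell RNA in the Gzmb values was not tested. Of 4 measured B and plasma cell markers, Ms4a1 and Mzb1 were at background on every array. Cd79b read 4.04, 11.1 and 19.0 in PICT, PCT and OMCT, above background around the tooth and at the healed site. Jchain read 14.9, 0.405 and 14.4, at background around the tooth. Their part in the members' values was not tested.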

How the data were processed

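Total RNA from laser-microdissected tissue was labelled with biotin (GeneChip 3'IVT Express, per the labels' protocols) and read on 1 rat array per tissue. The authors deposited linear intensities, 1 per probe set (31099), from 0.0124 to 13104. The summary of probes and any scaling of arrays are not stated in the sources used here. No deposited value has a replicate, so the number of arrays limits the precision.

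Names came from the platform annotation: 20832 probe sets had 1 symbol, 436 several and 9831 none; 20758 of 20826 named probe sets that are not controls matched a RefSeq gene ID (GRCr8) and 0 symbols changed. A gene was read from the probe set whose mean log2 value over the arrays was highest. The pseudocount, 8.56, is the 20th percentile of all values. Negative controls were the 3 TrpnX probe sets. Python 3.11.15, numpy 2.4.6 and pandas 2.3.3 were used. Alternatives covered scaling, pseudocount, filter, probe-set choice and a floor. Named genes were all members, listed genes past the 2-fold rule, and genes said to be named after their values were seen; list members at background and marker genes are also named. The members and lists were chosen with earlier results of these data known. Coordinates are printed only for the promoter sequences; the RefSeq table also gave the order of the neighbouring CD3 genes.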

Additional observations from a re-analysis of the deposited data

How the results depend on the processing

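Of 280 values of single members under other settings, 230 moved by less than the SD between probe sets and 50 moved by more. No called difference changed sign. Many of the 230 could not move. The filter settings change only the rule for calling, so each difference there equals the main value. The mean over probe sets cannot change the 7 members with 1 probe set. The 230 are therefore no measure of stability. With a floor at the negative control, Nkg7 went to -0.38 for OMCT minus PCT. As deposited, the member medians were 1.52 for PICT minus PCT and 0.98 for OMCT minus PCT, 2 members were higher in OMCT than in PCT, and over all genes 2009 were higher and 128 lower for PICT minus PCT (566 and 479 relative to the medians) and 2501 and 298 for OMCT minus PCT (805 and 684). With a pseudocount of 1 the medians were 1.56 and 0.91. With the pseudocount at the median intensity the member medians were 0.29, 0.24 and -0.03 for PICT minus PCT, PICT minus OMCT and OMCT minus PCT, 0 members were higher in PICT than in OMCT (Cd8a at 0.94), and the counts over all genes were 130 lower for PICT minus PCT, 355 higher and 379 lower for PICT minus OMCT (590 and 634) and 335 lower for OMCT minus PCT. With the negative control as the limit, 3 members were higher in PICT minus OMCT and 870 genes lower in PICT minus PCT. For OMCT minus PCT 3 members were higher, 1 lower and 1092 genes lower. With no filter the member counts were again 3, 3 and 1, and 945 and 1163 genes were lower than PCT in PICT and OMCT. With the mean over probe sets, 0 members were higher in PICT than in OMCT. Quantile normalization, a common trimmed mean and a floor at the negative control left the called members as they were. So did leaving out the PCT array, tried after seeing the data, for PICT minus OMCT. The PCT array enters that comparison only through the pseudocount and the choice of probe set, so this setting could change little. No paired analysis was possible because each tissue has 1 array and the result comes from no test. Members near background have differences whose size the floor limits.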

Other observations

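The lectin-like receptor genes of NK cells and the granzymes were also read as whole families, by symbol and after the values above were seen. Of 13 genes whose symbol starts with Klr, 6 were above background in PICT, 4 in PCT and 8 in OMCT. Over all genes the shares were 86.6%, 86.3% and 92.4%. The controls differ between these arrays (8.36, 5.71 and 3.60). By intensity, 7 of the 13 were brightest in PICT, 1 in PCT and 5 in OMCT. At background on all arrays were 3 (Klrc2, Klre1 and Klrg1), and Klrc2 and Klre1 are among the 7 counted as brightest in PICT. Klra5, a receptor of the Ly49 family, read 22.8, 3.31 and 41.8 in PICT, PCT and OMCT and was thus brightest at the healed site, as Cd8b was, whereas Klrk1 and Klrb1b were brightest around the implant. Klrc1 (NKG2A) was above background in OMCT alone, at 14.1, while its partner Klrd1 (CD94) was above background in PICT alone, at 15.3. In OMCT Klrd1 read 3.03 against a control of 3.60, and in PICT Klrc1 read 5.57 against 8.36. Values this near the floor do not show on which arrays the partners of this receptor pair were present. Of 6 granzyme genes, 2 were above background in PICT (Gzma and Gzmb), 2 in PCT and 3 in OMCT. Gzmf and Gzmn were at background on every array. By intensity 5 of the 6 were brightest in PICT and 1 in OMCT. Of those 5, Gzmm, Gzmf and Gzmn were at background in PICT, so their rank there shows no expression.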
